A study of Mus musculus with 3 samples.

Results

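Genes named for testis expression (Tex, Tsga, Tsnaxip, Tcp11, Tcte, Tctex and Tesk) and, as a somatic comparison, the tetraspanin genes named Tspan were followed across 3 arrays of mouse testis cells. Members were chosen by a rule on symbols that uses no level, though the choice was made with earlier results of these data known. The rule took every probe set that names a single gene whose array symbol fits these name stems, with 2 symbols left out. This gave 69 genes of 19938 named genes, measured by 70 probe sets, of which 50 were testis-named and 19 were Tspan genes. RNA levels were measured on a GeneChip Mouse Gene 1.0 ST array in 3 replicate samples from testes of wild type male BALB/c mice aged 30 days, which the labels call spermatids, germ cells that have passed meiosis. The samples form 1 group with no control, so no comparison of conditions was possible, and each gene could only be set against a background level and beside other genes of the same arrays. The protocol in the labels makes a cell suspension from tubules by homogenisation and a strainer and mentions no sort for spermatids. Whether the replicates are separate animals is not stated, so the p-values measure only the spread between these samples, which may be technical.

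The Tex and Tsga symbols are names of origin and not of function: they were given to transcripts found in testis, and the proteins behind them range from meiotic and intercellular bridge factors to surface proteins, flagellar parts and general proteins of the endoplasmic reticulum. The Tcp and Tcte symbols mark genes of the t-complex, a region of mouse chromosome 17 known for its effects on sperm function, and their relatives. Tetraspanins are membrane proteins that span the membrane several times and gather partner proteins into patches, and many act in blood, epithelial and vascular cells.

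Levels are the deposited RMA values (log2), and errors are SDs over the 3 arrays. A background level of 7.98 was set at the 95th percentile of 211 genes not known for a role in testis, the vomeronasal receptor (Vmn1r, Vmn2r) and hair keratin associated protein (Krtap) genes, whose own median was 4.77. A gene was called above background when limma's one-sided test of its mean against that level had a Benjamini-Hochberg adjusted p under 0.05 over all named genes, and 36.6% of all named genes were called. A gene that was not called is not shown to be absent. Probe sets also differ in how strongly they bind, so the order of single genes is no order of RNA amounts. Levels were exactly equal on all 3 arrays for 17 testis-named and 7 Tspan genes, as for 46.0% of named genes. Their SD of 0 means tied values and not an absence of error, and a call then asks only whether the value exceeds the background level. Where only a pair of arrays was tied, as for Tcp11, the SD rests on the single array that differed. A small SD or p-value then says little about the error.

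Markers listed for several germ cell stages and for somatic cells were called above background. All 8 elongating spermatid, 8 round spermatid, 6 pachytene spermatocyte and 7 meiotic prophase markers were called above background, with list medians of 12.48, 11.50, 12.23 and 11.18. Whether RNA of the pachytene and prophase markers came from spermatocytes or from spermatids was not tested. The somatic markers included 5 of 5 measured for Leydig cells (median 10.39), 5 of 7 for Sertoli cells (9.88), 4 of 6 for peritubular, endothelial and stromal cells (8.66) and 3 of 4 for blood and immune cells (8.85). Both endothelial markers, Pecam1 at 6.74 and Kdr at 6.63, and the pan-leukocyte marker Ptprc at 6.67 were not called. Nor were the Sertoli markers Sox9 at 7.91 and Amh at 5.91. Of the 8 spermatogonial markers 3 were called (7.60), and of the 8 markers of other tissues 0 were called by limma's adjusted test or at an unadjusted p under 0.05 (6.56). The part of each cell type in the levels given here was not tested, and in such bulk samples fewer cells of a type and less RNA per cell cannot be told apart.

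Most testis-named genes lay well above background, and the Tspan genes as a set did not. Of the 50 testis-named genes 38 (76.0%) were called, and 12 were not, beside 36.6% of all named genes. Of the 19 Tspan genes 5 (26.3%) were called. Tied values stood behind 11 of the 38 and 2 of the 5 calls. The median level of the testis-named genes was 10.14 ± 0.01 (n = 3), at 10.14, 10.12 and 10.15 in replicates 1, 2 and 3, and that of the Tspan genes was 7.39 ± 0.02, at 7.38, 7.42 and 7.38. The median of all named genes was 7.44 ± 0.01. The testis-named median exceeded the Tspan median by 2.76, 2.70 and 2.77 on the 3 arrays, a mean difference of 2.74 ± 0.03. That SD gives only how well the arrays repeat: the sets hold different probe sets, and their members ranged from 5.90 to 12.06 and from 5.54 to 11.44. These are descriptions of 2 sets of genes, and no test over genes was made. Ranked among all named genes, the median testis-named gene stood at percentile 89.1 and the median Tspan gene at percentile 48.7.

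The counts depend on the background level, and the Tspan count more so. At the 99th percentile of the background genes, where 19.3% of all named genes were called, 32 testis-named and 4 Tspan genes were called. At the 90th percentile 46 and 13 were called beside 61.9% of all named genes, and with a level taken from olfactory receptor genes 46 and 13 were called beside 55.0%. Without replicate 1, 2 or 3 the testis-named counts were 36, 40 and 36 and the Tspan counts 5, 6 and 6, beside 33.4%, 35.6% and 34.1% of all named genes. With only genes that are not tied, 28 of 33 testis-named and 4 of 12 Tspan genes were called, beside 42.2%.

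**Figure D1:**
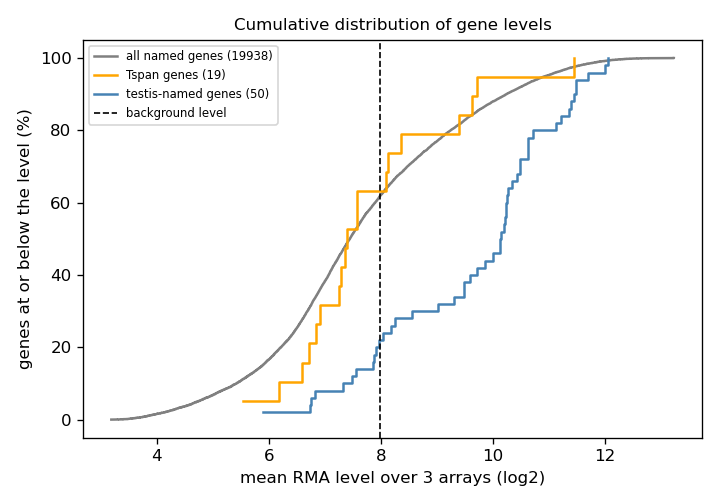
Cumulative share of genes (percent) at or below each mean RMA level (log2, 3 arrays) for the 50 testis-named genes, the 19 Tspan genes and all 19938 named genes, with the background level of 7.98 as a dashed line. The testis-named curve lies to the right of the others with a median of 10.14, while the Tspan curve, with a median of 7.39, runs close to that of all named genes.

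By name stem, 28 of 36 Tex genes, 2 of 3 Tsga genes and 4 of 5 Tcte and Tctex genes were called above background. So were 1 of 3 Tcp11 genes, both Tesk genes and Tsnaxip1, beside 36.6% of all named genes. Stems other than Tex hold few genes each, so their shares say little. Tex48 had the highest mean of the testis-named set, at 12.07, 12.03 and 12.07 in replicates 1, 2 and 3 (12.06 ± 0.03, n = 3, limma adjusted p = 1.05e-05). Tsnaxip1, whose protein binds translin-associated factor X, was at 12.005 on all 3 arrays. Tex35 followed at 11.70, 11.66 and 11.70 (11.69 ± 0.02, limma adjusted p = 7.13e-06). These 3 genes lay 4.08, 4.02 and 3.70 log2 units above the background level, and their arrays were close together beside that margin.

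Tex33 was at 11.47, 11.47 and 11.49 in the 3 replicates, Tex24 at 11.38, 11.26 and 11.41, and Tex29 at 11.16, 11.16 and 11.33. Tex21 was at 11.12 on all arrays. For Tex24 replicate 2 was the lowest array, and for Tex29 replicate 3 stood above the other arrays, which were tied. All 4 were called, with limma adjusted p-values of 0.00022 or less.

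**Figure D2:**
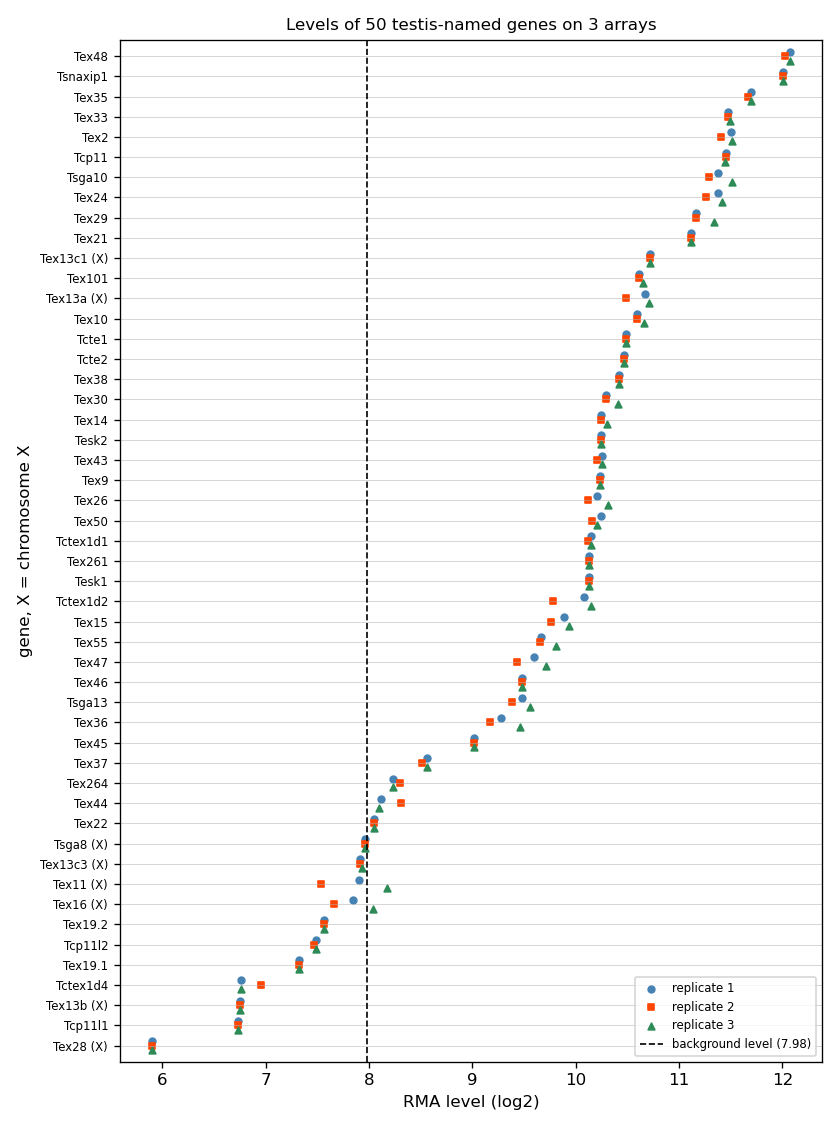
RMA level (log2, horizontal axis) of each of the 50 testis-named genes (vertical axis, sorted by mean) in replicate 1 (circles), replicate 2 (squares) and replicate 3 (triangles), with X-linked genes marked X and the background level of 7.98 dashed. The 3 arrays of a gene lie close together beside the range of the set, from 5.90 for Tex28 to 12.06 for Tex48, and 6 of the 12 genes not called are X-linked.

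Of the 8 measured members listed for meiosis, intercellular bridges and transposon silencing 3 (37.5%) were called, close to the 36.6% of all named genes. The called ones were Tex14, Tex15 and Tex13a, while Tex11, Tex16, Tex13b, Tex19.1 and Tex19.2 were not. Tex14, which keeps the cytoplasmic bridges between dividing germ cells open, was at 10.25, 10.25 and 10.30 (10.27 ± 0.03, n = 3, limma adjusted p = 4.41e-05). Tex15, which acts in meiotic recombination and in piRNA-directed silencing of transposons, was at 9.89, 9.76 and 9.94 (9.86 ± 0.09, limma adjusted p = 0.000531). Both lay above background on every array.

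Tex11, an X-linked meiotic recombination factor, was at 7.90, 7.54 and 8.17 (7.87 ± 0.32, limma adjusted p = 1) and was not called. Its arrays lie on both sides of the background level, and its SD was the largest of all 69 genes. Tex19.1 and Tex19.2, paralogs that restrain retrotransposons in the germ line, were at 7.32 and 7.56 with tied values, neither called, and as close copies they may share probe signal. Tex16, another X-linked gene, was at 7.85, 7.66 and 8.04 (7.85 ± 0.19) and also straddled the level.

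Beside Tex14, all 6 measured genes of the intercellular bridge and abscission list were called, with a median of 9.72 ± 0.07. This and the other process lists were chosen with earlier results of these data known, and their counts stand beside 36.6% of all named genes. Cep55, whose protein Tex14 keeps from completing abscission, was at 9.50 ± 0.09, and Kif23, a kinesin of the midbody, at 9.95 ± 0.06. Racgap1, the partner of that kinesin, was the lowest of the list at 8.23 ± 0.08. Beside Tex15, 7 of 9 measured genes of piRNA-directed silencing were called. The exceptions were Piwil4, the Piwi gene of fetal germ cells, at 6.33 with tied values and Dnmt3l, a cofactor of de novo DNA methylation in the same cells, at 6.25 ± 0.01. Mael and Gtsf1, piRNA pathway genes, were at 12.36 ± 0.09 and 11.69 ± 0.06.

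Of the 7 members listed for the sperm surface and acrosome 6 were called above background, beside 36.6% of all named genes. They were Tex101, Tex29, Tex38, Tex46, Tspan6 and Tex22, the last at 8.04 on a margin of 0.06. Tspan8, at 7.57, was not called. Tex101, a GPI-anchored surface protein of germ cells that is needed for the sperm protein Adam3 to mature, was at 10.61, 10.61 and 10.65 (10.62 ± 0.02, n = 3, limma adjusted p = 1.41e-05). Tex38, which encodes a transmembrane protein of spermatids, was at 10.42 and Tex46 at 9.48, both with tied values. Of 14 genes listed as partners of Tex101 or of the same surface maturation route, 12 were called, with a median of 10.22 ± 0.14. Adam3 and Adam5, sperm surface members of the ADAM family, were at 12.49 ± 0.13 and 12.33 ± 0.16, and Ly6k, a GPI-anchored partner of Tex101, was at 9.90 with tied values. Adam6a and Adam6b are near-identical copies, so their levels of 10.24 ± 0.07 and 10.18 ± 0.22 are uncertain. The 2 genes not called were Cdh1, an epithelial cadherin, at 6.34 and Pgap1, a remodelling enzyme of GPI anchors, at 6.41 ± 0.10.

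Of the 13 measured members listed for the flagellum, centriole and microtubules 12 were called, beside 36.6% of all named genes. Tctex1d4 was the exception. Tsga10, a protein of the sperm tail and centriole region, was at 11.38, 11.29 and 11.51 (11.39 ± 0.11, n = 3, limma adjusted p = 0.000257), with replicate 2 lowest. Outside that list, Tcp11, a t-complex gene whose protein is found in sperm, was at 11.45, 11.45 and 11.44 (11.45 ± 0.0046, limma adjusted p = 3.09e-07). Tcte1, a subunit of the nexin-dynein regulatory complex that links the outer doublets of the axoneme, was at 10.48 with tied values. Of the other genes of that complex and its neighbourhood, all 12 measured were called, with a median of 10.05 ± 0.02, from Lrrc56 at 8.55 ± 0.04 to Nme5 at 11.64 ± 0.13. Tex43 and Tex37, which encode proteins inside the doublet microtubules of the sperm tail, were at 10.24 ± 0.03 and 8.55 ± 0.03, with limma adjusted p-values of 3.51e-05 and 0.00062.

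The Tctex genes encode light chains of the dynein motor. Tctex1d1 was at 10.15, 10.12 and 10.15 (10.14 ± 0.02, n = 3). Tctex1d2 was the one member with more than 1 probe set, and its 2 probe sets disagreed: one read 11.43, 11.12 and 11.57 and the other 8.73, 8.44 and 8.73. Both were lowest on replicate 2, and their median of 10.08, 9.78 and 10.15 (SD 0.20, limma adjusted p = 0.00228) lost its call without replicate 3 (limma adjusted p = 0.0592). Tctex1d4 was at 6.76, 6.96 and 6.76 (6.83 ± 0.11) and was not called.

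The t-complex genes on chromosome 17 were among the higher members. All 3 with a probe set of their own were called, namely Tcp11, Tcte1 and Tcte2, the last at 10.47 with tied values, beside 31.7% of the 936 named genes on that chromosome. Tcp10a, Tcp10b and Tcp10c share 2 probe sets that name all 3 of them and belong to no count above. One read 12.21, 12.21 and 12.37, and the other 12.18, 12.18 and 12.33. Tcte3, an axonemal dynein light chain gene, shares its 2 probe sets with a pair of predicted copies, at 12.47, 12.42 and 12.68 and at 12.22, 12.17 and 12.44. These readings cannot be assigned to 1 gene. When such shared probe sets were added to the fit, 40 of 54 testis-named genes were called beside 31.6% of all genes then named. In contrast, Tcp11l1 and Tcp11l2, relatives of Tcp11 on other chromosomes, were at 6.74 with tied values and at 7.48 ± 0.01, neither called.

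**Figure D3:**
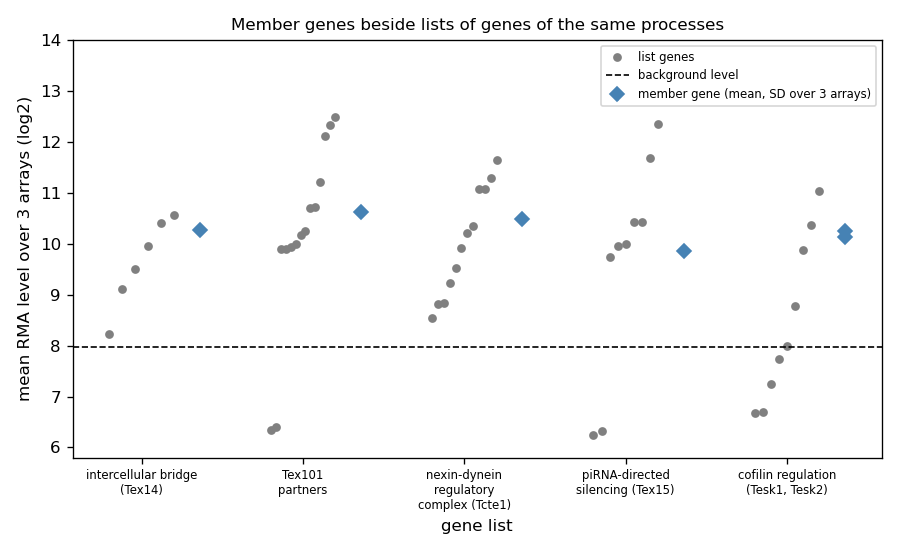
Mean RMA level (log2, vertical axis) of the genes of 5 process lists (grey points, each gene 1 point) with the testis-named gene of the same process beside them (blue diamonds, error bars SD over 3 arrays, smaller than the symbols) and the background level of 7.98 dashed. Tex14, Tex101, Tcte1 and Tex15 lie within the range of their lists, and the cofilin list runs from 6.67 to 11.04 around the Tesk1 and Tesk2 points at 10.13 and 10.24.

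Both testis-named kinases were above background. Tesk1 and Tesk2 phosphorylate cofilin and thereby stop it from severing actin filaments, and they were at 10.13 and 10.24 with tied values. Of the 9 genes listed for cofilin regulation 5 were called. The cofilin genes Cfl1 and Cfl2 were at 10.37 with tied values and 11.04 ± 0.01. Among the related LIM kinases, Limk1 was at 7.73 and not called, while Limk2, at 7.99 with tied values, was called on a margin of 0.01 over the background level. The cofilin phosphatase Ssh2 was at 8.77 ± 0.16 and was called, and Ssh1 and Ssh3 were at 6.70 and 7.25 and were not.

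Several members act in general cell functions outside the germ line too. Of the 7 listed for such functions 5 were called, beside 36.6% of all named genes. Tcp11l1 at 6.74 and Tcp11l2 at 7.48 were not. Tex2, a lipid transfer protein of endoplasmic reticulum contact sites, was at 11.50, 11.41 and 11.51 (11.47 ± 0.06, n = 3, limma adjusted p = 6.14e-05). Tex10, a subunit of a nuclear complex for ribosome maturation, was at 10.59, 10.59 and 10.66 (10.61 ± 0.04), and Tex261, of the early secretory pathway, at 10.13 ± 0.0048. Tex264, a receptor for autophagy of the endoplasmic reticulum, was close to the background level at 8.23, 8.30 and 8.23 (8.25 ± 0.04, limma adjusted p = 0.00536). Its call was lost without replicate 1 (limma adjusted p = 0.0604) and without replicate 3 (limma adjusted p = 0.0916).

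Fewer of the X-linked than of the autosomal testis-named genes were called. The X-linked share, 25.0%, was close to that of all X-linked named genes. Among the testis-named genes 2 of 8 on chromosome X were called and 36 of 42 on autosomes, beside 27.6% of all 739 X-linked and 37.0% of all 19103 autosomal named genes. The called ones were Tex13c1, at 10.71, 10.71 and 10.72 (10.72 ± 0.0042, limma adjusted p = 4.29e-07), and Tex13a, at 10.67, 10.49 and 10.71 (10.62 ± 0.12, limma adjusted p = 0.00047). Their relative Tex13c3 was at 7.91, 7.91 and 7.93 (7.92 ± 0.01), under the background level on every array, and Tex13b was at 6.75 with tied values, neither called. Tsga8, a testis gene of spermatids, was at 7.96 with tied values, 0.02 under the level, and Tex28 was lowest of all testis-named genes at 5.90. Both testis-named shares rest on few genes, and no test over genes was made. Relatives of the Tex13 family can share probe sequence, so their single levels are uncertain.

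In all, 9 of the 69 genes had a mean within 0.3 of the background level, and 2 of them, Tex264 and Tex22, were called. Tex22 was called at 8.04 with tied values, 0.06 over the level. Tex44 was at 8.11, 8.30 and 8.10 (8.17 ± 0.12, limma adjusted p = 0.107), above the level on every array but not called. With the arrays centred on their medians, where 36.8% of all named genes were called, it was called (limma adjusted p = 0.0212), as was Tspan12 (0.0247). Single replicates decided calls here too: without replicate 2, where the background level was 7.94, Tex44 was called (limma adjusted p = 0.0382) and so was the tied Tsga8, and without replicate 3 Tspan12 was, its other arrays being tied. The others near the level were Tsga8, Tex13c3, Tex11, Tex16, Tspan31 and Tspan12.

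The remaining testis-named genes were all called: Tex30, Tex9, Tex26 and Tex50 lay between 10.20 and 10.33. Tex55, Tex47, Tsga13, Tex36 and Tex45 had means of 9.71, 9.58, 9.47, 9.30 and 9.01. Of these, Tex36 was the most variable, at 9.27, 9.17 and 9.46 (9.30 ± 0.15, limma adjusted p = 0.00319), and its call was lost without replicate 1 (limma adjusted p = 0.0555).

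Among the Tspan genes a single member was as high as the upper testis-named genes. Tspan6, an X-linked tetraspanin, was at 11.44, 11.38 and 11.51 (11.44 ± 0.06, n = 3, limma adjusted p = 8.07e-05), and it was the one Tspan gene with a mean over 10, against 28 of the 50 testis-named genes. Tspan5 was at 9.78, 9.60 and 9.78 (9.72 ± 0.10, limma adjusted p = 0.000842), Tspan3 at 9.62 with tied values and Tspan13 at 9.38, 9.39 and 9.39. Tspan17 was at 8.35 with tied values. Those 5 were the called genes of the set, and which cells carried their RNA was not tested.

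Tspan31 was at 8.23, 7.88 and 8.26 (8.12 ± 0.21, limma adjusted p = 0.435), with replicate 2 alone under the background level, and without replicate 2 it was called (limma adjusted p = 0.0318). Tspan12, a coreceptor of the Norrin and Frizzled4 pathway in vessels, was at 8.06, 8.06 and 8.15 (8.09 ± 0.05, limma adjusted p = 0.0598). The others ranged from 7.57 for Tspan8 down to 5.54, and none of them was called. Lowest were Tspan15 at 6.55, 6.65 and 6.57, Tspan1 at 6.18 with tied values, and Tspan32, a tetraspanin of blood cells, at 5.47, 5.67 and 5.47. Replicate 2 was the highest array for Tspan15 and for Tspan32.

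Within the C8 group of tetraspanins, which escort the protease Adam10 to the cell surface, Tspan5 and Tspan17 were called. Tspan10, Tspan14, Tspan15 and Tspan33 were at 7.39 ± 0.02, 6.92, 6.59 ± 0.05 and 6.71 ± 0.04 and were not. Of 11 tetraspanins with other names 3 were called, with a median of 7.60. Cd81, a broadly expressed tetraspanin, was at 10.52 ± 0.01, Cd151, a partner of laminin-binding integrins, at 8.84 and Cd63, a lysosome and exosome protein, at 8.43 ± 0.18. Cd9, the egg tetraspanin needed for gamete fusion, was at 7.77 and was not called.

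**Figure D4:**
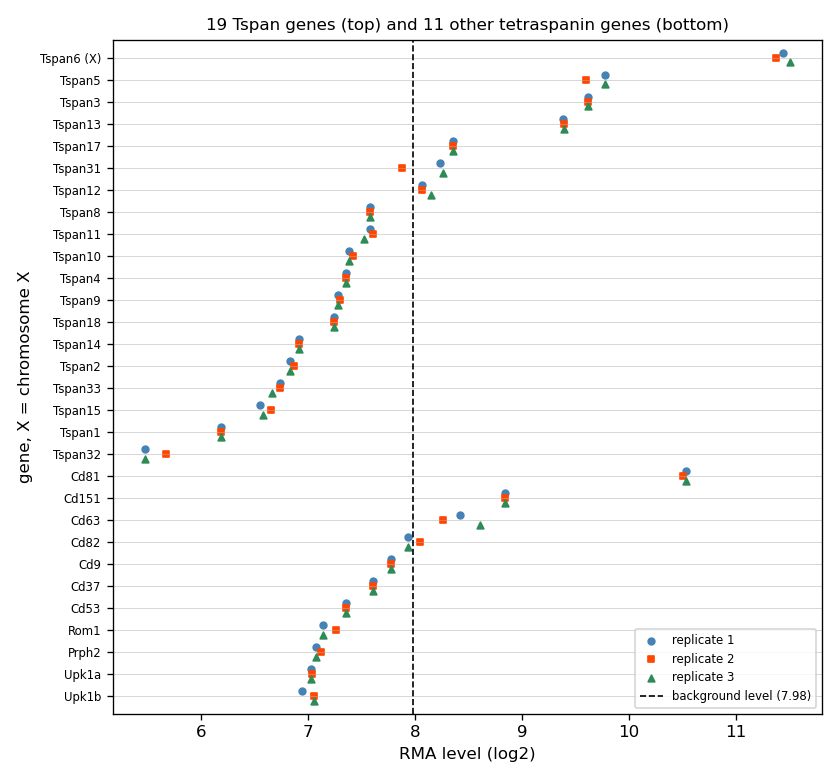
RMA level (log2, horizontal axis) of the 19 Tspan genes (upper rows) and 11 tetraspanin genes with other names (lower rows) in replicates 1 (circles), 2 (squares) and 3 (triangles), with the background level of 7.98 dashed. In the upper block Tspan6 stands alone above 11 and most genes lie left of the line, and in the lower block Cd81, Cd151 and Cd63 lie to its right on all 3 arrays.

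The promoters of the members were searched for motifs that the choice by symbol did not use, in the 250 bases before each start in RefSeq's table for GRCm38.p6. The table held 51 promoters for 42 of the 50 testis-named genes and 24 for 18 of the 19 Tspan genes. The full cyclic AMP response element, TGACGTCA, a palindrome read by CREM and CREB proteins, was in 1 testis-named promoter (1.96%) and in 0 Tspan promoters, beside 1.55% of all 32851 promoters and 2.02% of the promoters of genes on the array. The GC box, GGGCGG on either strand, was in 29.4% of testis-named and 37.5% of Tspan promoters, beside 32.7% of all promoters and 45.5% of those of genes on the array. TATAAA on either strand was in 3 testis-named promoters (5.88%) and 1 Tspan promoter (4.17%). These stand beside 12.4% of all promoters and 10.5% of those of genes on the array. By gene, 5 of the 7 members with general cell functions held a GC box (Tex2, Tex10, Tex261, Tex264 and Tcp11l1), against 8 of the other 35 testis-named genes with a promoter in the table, beside 7700 of 15614 genes on the array that have one there. Shown here are the window of the single cyclic AMP response element and 1 GC box window each of 2 germ cell members and of 2 general ones, 5′ to 3′ on the strand of the gene, with the motif or its reverse complement in capitals.
Tesk1, chr4:43442164-43442211, + strand: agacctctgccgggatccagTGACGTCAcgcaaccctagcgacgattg
Tex14, chr11:87404936-87404981, + strand: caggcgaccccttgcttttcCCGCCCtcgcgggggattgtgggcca
Tex101, chr7:24672202-24672247, - strand: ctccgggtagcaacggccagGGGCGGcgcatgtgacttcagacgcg
Tex10, chr4:48473476-48473521, - strand: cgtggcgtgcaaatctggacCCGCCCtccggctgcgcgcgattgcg
Tex2, chr11:106612976-106613021, - strand: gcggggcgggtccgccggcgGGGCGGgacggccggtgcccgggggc
The Tesk1 element begins 93 bases before the start. The GC boxes in capitals begin 109 bases before it in Tex14, 177 in Tex101, 38 in Tex10 and 71 in Tex2. The Tex2 window also holds another GC box, left in lower case, that begins 88 bases before the start. A match describes letters only, and the level of a gene was not set against its motifs by a test.

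Differences between arrays were small for most members, and their direction differed between the testis-named and the Tspan genes. Of the testis-named genes 10 had an SD over 0.1, and of the Tspan genes 3. Among the 33 testis-named genes that were not tied, replicate 2 was below both others for 21 (63.6%) and above both for 3 (9.09%). Among the 12 Tspan genes that were not tied, it was below for 3 and above for 6. Over all named genes that were called and not tied, replicate 2 was lowest for 58.7% and highest for 9.62%, and over those not called it was lowest for 13.2% and highest for 60.4%. The testis-named shares were thus close to those of all called genes, and the SD over named genes was 1.79 on replicate 2 against 1.81 and 1.83 on replicates 1 and 3.

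**Figure D5:**
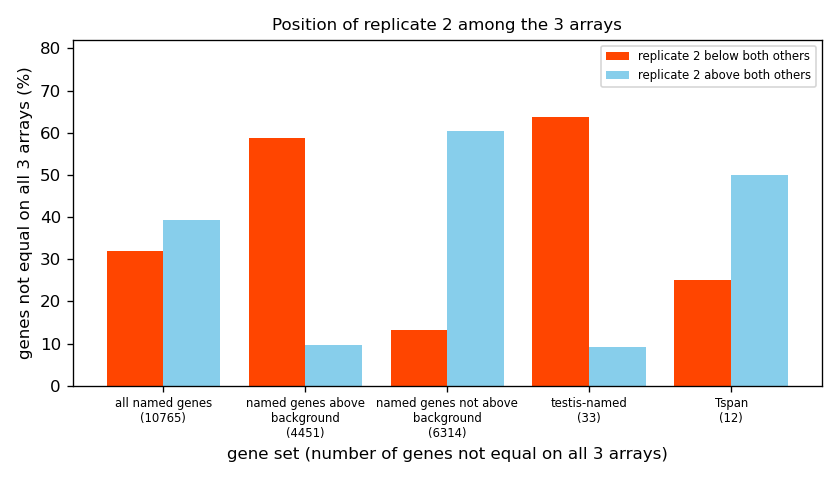
Percent of genes not equal on all 3 arrays (vertical axis, from 0) for which replicate 2 was below (orange bars) or above (blue bars) both other arrays, by gene set, with the number of such genes in brackets. The testis-named bars, 63.6% and 9.09%, are close to those of all called genes, 58.7% and 9.62%, while the Tspan bars, from 3 and 6 of 12 genes, lean the way of the genes not called.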

How the data were processed

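Per the series' design text, the authors made the deposited log2 levels with Robust Multichip Average in Affymetrix Power Tools, with annotation based on mm9. The software version is not given in the sources here. Medians over all 35556 probe sets were 7.17, 7.20 and 7.17 for replicates 1 to 3. The arrays' number, 3, limits the precision. The platform annotation named 1 gene for 21789 probe sets, and 21698 of these were updated to GRCm38.p6 symbols by Entrez identifier. Each gene's level is the median over probe sets naming it alone. The fit was an intercept model in limma 3.58.1 (R 4.3.3) over all 19938 named genes, with 0.267 prior degrees of freedom. With only untied genes fitted, the prior degrees of freedom were 1.23. The model was also run on simulated data with SDs drawn from untied genes only, so that run does not check calls of tied genes. Named with each array's value by rule were the highest, lowest and most variable members, those near the background level, and members whose probe sets disagree. Others are given by role or range. Members and lists were chosen with earlier results of these data known. Listed genes with no level of their own, among them Tex40, are not analysed here. The CatSper list, chosen for Tex40, had 10 of 10 measured genes called, with a median of 10.71 ± 0.16.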

Additional observations from a re-analysis of the deposited data

How the results depend on the processing

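The alternatives changed the background level, the call rule, the variance model, the use of probe sets, the centring of arrays and the replicates used. The count of testis-named genes above background stayed between 28 and 46 under every alternative run. The lowest, 28 of 33, came from testing only untied genes, so it is no lower share. With shared probe sets added the count was 40 of 54, and the other alternatives tested all 50. The count of 5 Tspan genes became 13 at the 90th percentile and 13 with an olfactory receptor background. The testis-named median moved to 10.16 with the highest probe set per gene and to 10.19 after adding shared probe sets, and its excess over the Tspan median to 2.80 with the latter. Leaving out 1 replicate gave 36 to 40 testis-named and 5 to 6 Tspan genes. By gene, 35 of 50 testis-named and 10 of 19 Tspan calls were the same under every alternative that included the gene. At the 99th percentile the mean fell under the level for Tex45 (-0.15), Tex37 (-0.62), Tex264 (-0.91), Tex22 (-1.12) and Tspan17 (-0.81). Shared probe sets raised the background level to 8.33, which put Tex264 (-0.074) and Tex22 (-0.28) under it. No paired analysis was possible because the samples form 1 group.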
